A study of Mus musculus with 12 samples.

Results

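Mitochondrial ribosomal proteins are described here through 76 of the 14323 genes measured, namely every gene whose symbol starts with Mrpl or Mrps followed by a digit. The choice used names alone and no measured value. Of the 76, 47 are named Mrpl and 29 are named Mrps, but the names do not fully match the structure of the ribosome. Mrps30 and Mrps18a encode proteins of the large subunit, so that 49 of the genes belong to the large and 26 to the small subunit. Mrps36, despite its name, encodes a component of the 2-oxoglutarate dehydrogenase complex and not a ribosomal protein. In the GENCODE M21 annotation of GRCm38 (mm10) all 76 genes were found as protein-coding genes, spread over 17 chromosomes, with the most (10) on chromosome 11.

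The mitochondrial ribosome translates the few messages that mitochondrial DNA encodes, all of which are subunits of the respiratory chain and ATP synthase. Its RNA comes from mitochondrial DNA, whereas all of its proteins are encoded in the nucleus, made in the cytosol and imported. Some of these proteins have a counterpart in bacterial ribosomes and others are found only in mitochondria. Naïve T cells are quiescent, and their activation through the T cell receptor is known to come with growth and with the production of new mitochondrial components.

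Naïve CD8+ T cells (sorted as TCRβ+CD8+CD62L+CD44-) from the spleens of 3 adult wild type mice were cultured for 6 h on plates coated overnight with antibodies. The 4 conditions combined the presence or absence of 2.5 µg/ml anti-CD3 (clone 145-2C11), which triggers the T cell receptor complex, with 2.5 µg/ml of either anti-LAIR-1 (clone 2C7), an agonistic antibody to an inhibitory collagen receptor, or isotype control. Unstimulated wells lacked anti-CD3 and, like all other wells, held cells of the same sort. There was 1 library per mouse and condition, 12 in all, so that every value below has n = 3 per condition. The comparison of anti-CD3 with unstimulated cells shows the response to receptor triggering, and that of anti-LAIR-1 with isotype shows the effect of LAIR-1 ligation on it.

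Library totals ranged from 1781218 to 7725545 counts, with the smallest in the unstimulated isotype libraries, and 3 counts correspond to 0.388 to 1.68 CPM. CPM is the share of a gene in its library, scaled by the TMM method, which corrects for library composition. Expression was measured in pools of cells, and a change in CPM is a change in the share of the captured messages, from which fewer cells of a type and less RNA per cell cannot be told apart. The 7 T cell markers (among them Cd3e, Cd8a and Lck) together held 4014 to 4571 CPM in unstimulated and 2238 to 2908 CPM in anti-CD3 libraries. Markers of other cells were scarce. The 4 B cell genes measured held 3.86 to 9.46 CPM together without and 1.08 to 4.30 CPM with anti-CD3, and Cd4 no more than 1.58 CPM. Of the 3 myeloid genes measured, Cst3 had a mean of 34.6 to 54.5 CPM per condition, lower with anti-CD3, while Csf1r and Itgam were at or near 0. The part of these other cells in the changes below was not tested.

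Anti-CD3 raised the expression of the mitochondrial ribosomal proteins about as much in every mouse. The 76 genes together held 2692 ± 72.7 CPM (SD, n = 3) in unstimulated isotype libraries and 5654 ± 157 CPM in anti-CD3 isotype libraries, a ratio of 2.1. Within mice 1, 2 and 3 the ratio was 2.05, 2.11 and 2.13. With anti-LAIR-1 the sum was 2635 ± 109 CPM without and 5434 ± 45.2 CPM with anti-CD3, and the ratio in the 3 mice was 2.04, 2.16 and 2.00. No unstimulated library came above 2741 CPM and no anti-CD3 library fell below 5383 CPM. As raw shares of all counts, the genes took up 0.267 to 0.291% of unstimulated and 0.514 to 0.549% of anti-CD3 libraries. At 3 libraries a group, an exact two-sided permutation test of such a sum cannot give a p-value below 0.1, and none was run.

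**Figure D1:**
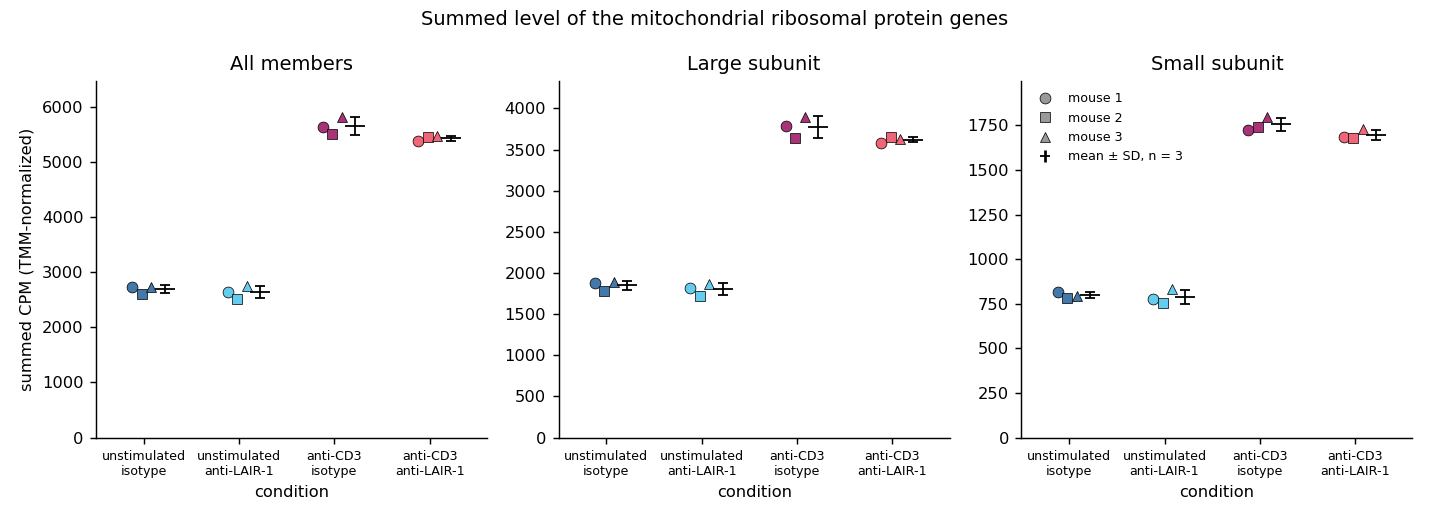
Summed CPM (vertical axis, TMM-normalized) of all 76 genes, of the 49 large subunit genes and of the 26 small subunit genes in the 4 conditions (horizontal axis), with 1 symbol per mouse and the mean ± SD. The 6 anti-CD3 libraries lie between 5383 and 5822 CPM and the 6 unstimulated ones between 2523 and 2741 CPM for all 76 genes.

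Both subunits took part in the rise. The large subunit genes went from 1850 ± 57.6 to 3774 ± 132 CPM with isotype, and the small subunit genes from 797.4 ± 17 to 1756 ± 38.4 CPM. The ratio of large to small subunit sums was lower with anti-CD3, at 2.15 ± 0.0568 with isotype and 2.135 ± 0.0368 with anti-LAIR-1, than without it, at 2.321 ± 0.0529 and 2.289 ± 0.0501. The 6 unstimulated libraries (2.248 to 2.381) did not overlap with the 6 anti-CD3 libraries (2.086 to 2.195) in this ratio, but the separation rested on Mrps6. Without Mrps6 the ratio was 2.391 ± 0.0535 and 2.413 ± 0.0687 without and with anti-CD3 in isotype libraries, and 2.352 ± 0.0563 and 2.395 ± 0.0282 with anti-LAIR-1, and the libraries overlapped. Mrps6 made up 0.869% of the summed CPM of the unstimulated isotype and 3.39% of that of the anti-CD3 isotype libraries, and without it the rise of the sum was still 2.05-fold.

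Gene by gene, all 76 passed the filter on low counts in each comparison. With isotype, 66 rose with anti-CD3, 2 fell and 8 did not pass an adjusted p of 0.05 (edgeR quasi-likelihood test, Benjamini-Hochberg over all genes tested). Of all 8690 genes tested, 35.3% rose and 36.1% fell. The median log2 fold change was 1.03 for the 76 genes and -0.0256 for all genes tested, and 39 of the 76 rose by more than 1 on the log2 scale, against 20.8% of all genes. The values of the unstimulated and anti-CD3 libraries did not overlap for 69 genes that were higher with anti-CD3 (39.0% of all genes tested) and for 2 that were lower (34.4%).

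**Figure D2:**
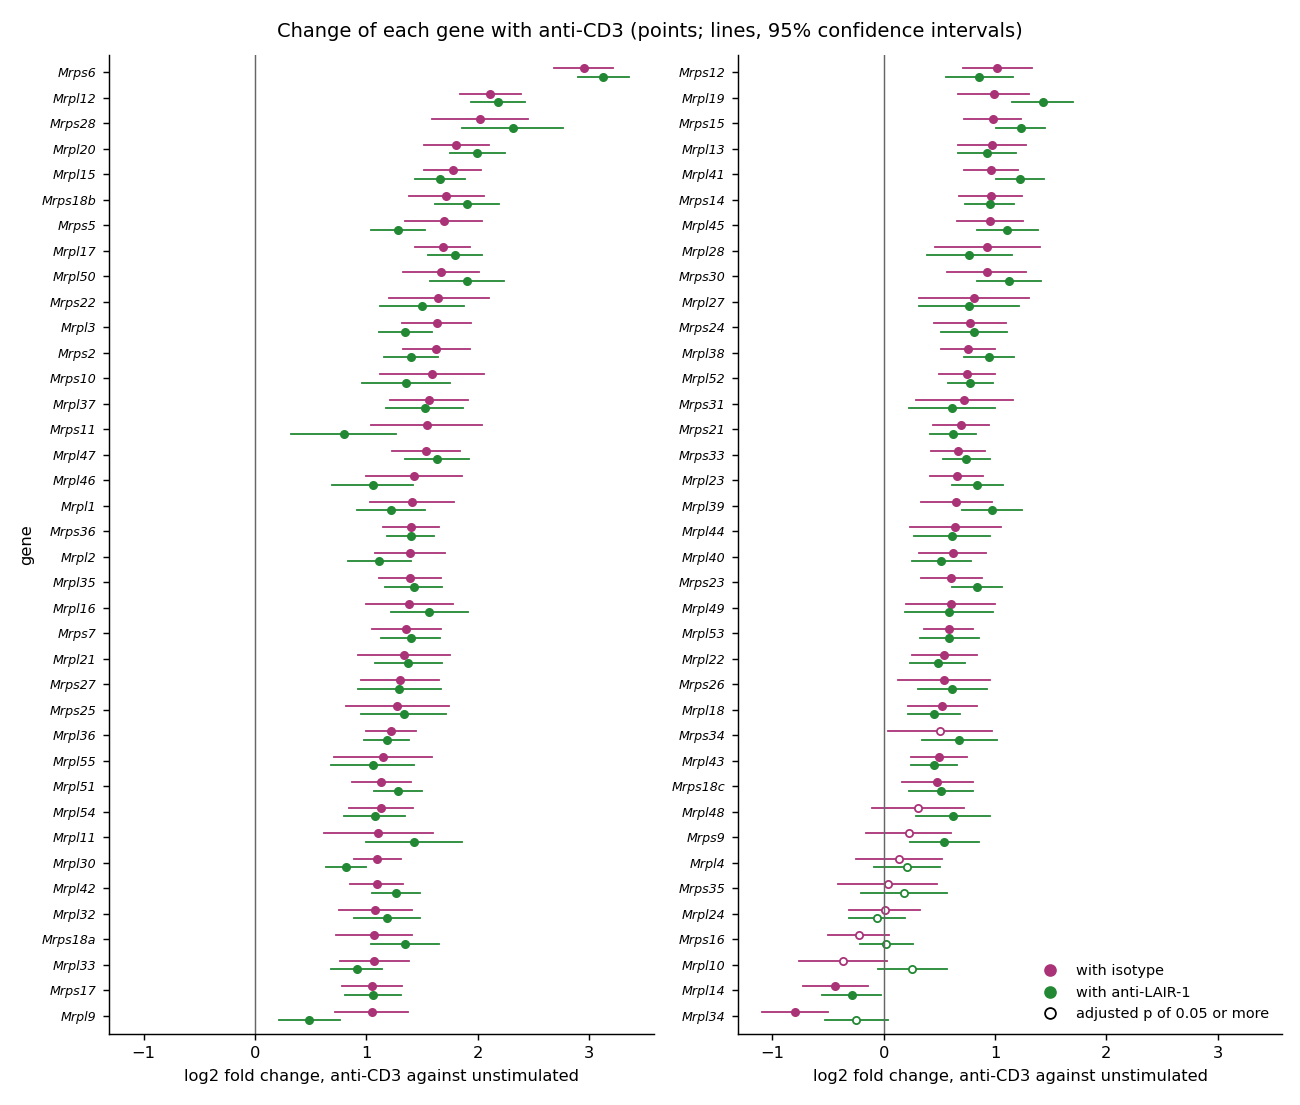
Log2 fold change with anti-CD3 against unstimulated (horizontal axis) for each of the 76 genes (vertical axis, ordered by the value with isotype), with 95% confidence intervals, for isotype and anti-LAIR-1 libraries. Filled points passed an adjusted p of 0.05. Mrps6 stands highest with both antibodies (2.95 and 3.13), and Mrpl34 lowest with isotype (-0.79).

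Mrps6, a small subunit protein with a bacterial counterpart, rose the most. Its level was 23.2, 23.8 and 23.1 CPM in the unstimulated isotype libraries of mice 1, 2 and 3 and 200, 193 and 182 CPM in the anti-CD3 isotype libraries. This is a 7.75-fold difference (log2 2.95, SE 0.127, adjusted p = 1.2e-15). The spread between mice was small beside the distance between the conditions, and the groups did not come near each other. Mrps6 (chr16:92058270-92112227, plus strand) overlaps the protein-coding genes Gm49711 and Slc5a3 on its own strand. Slc5a3 encodes the myo-inositol transporter and rose by 2.95 on the log2 scale (SE 0.185, adjusted p = 1.18e-12), from 8.80 ± 1.37 to 71.0 ± 7.54 CPM. How reads in shared sequence were divided among Mrps6, Gm49711 and Slc5a3 is not given in the sources used here, and its part in the rise of Mrps6 was not tested.

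Mrpl12, a protein of the stalk of the large subunit that is also known to bind the mitochondrial RNA polymerase, came second. It measured 30.9, 27.0 and 24.2 CPM without and 129, 118 and 131 CPM with anti-CD3 in the isotype libraries (log2 2.11, SE 0.133, adjusted p = 1.21e-12). Mrpl12 was thus 4.32-fold higher, with no overlap. The other stalk proteins did not move alike. Mrpl11, at the base of the stalk, rose from 12.9, 14.3 and 8.41 CPM to 22.4, 24.0 and 35.0 CPM (log2 1.11, SE 0.238, adjusted p = 0.000236). Mrpl10, which anchors the stalk, measured 31.2, 22.2 and 33.1 CPM without and 21.2, 21.4 and 26.9 CPM with anti-CD3, so that its groups overlapped (log2 -0.37, SE 0.192, adjusted p = 0.0895). The call on Mrpl10 depended on the scaling, since it was called lower with upper quartile normalization (-0.55) and with library totals alone (-0.46), and also without the unstimulated isotype library of mouse 2 (-0.53).

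Mrps28, a small subunit protein, rose 4.05-fold from low levels, from 8.63, 10.3 and 13.7 CPM to 45.5, 38.4 and 51.5 CPM (log2 2.02, SE 0.207, adjusted p = 7.54e-09). Of the large subunit proteins that bind ribosomal RNA, Mrpl20 rose by 1.81 (SE 0.139, adjusted p = 4.55e-11), from 24.6 to 33.8 CPM without to 101 to 119 CPM with anti-CD3. Mrpl15 rose by 1.77 (SE 0.125, adjusted p = 1.04e-11), from 35.7 to 45.7 CPM to 138 to 145 CPM. Mrpl17, near the exit of the tunnel through which the new protein leaves, rose by 1.69 (SE 0.119, adjusted p = 1.06e-11), and Mrps5, a small subunit protein, by 1.69 (SE 0.167, adjusted p = 3.69e-09). In each of these genes every anti-CD3 library lay above every unstimulated library.

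The 3 paralogues of the Mrps18 family, which occupy different places in the mitochondrial ribosome, all rose, but to different degrees. Mrps18b of the small subunit rose by 1.72 on the log2 scale (SE 0.166, adjusted p = 2.53e-09), from 15.3, 20.2 and 20.5 CPM to 71.0, 58.1 and 63.6 CPM. Mrps18a of the large subunit rose by 1.07 (SE 0.166, adjusted p = 4.51e-06), from 18.6, 23.4 and 22.1 CPM to 44.2, 44.6 and 51.3 CPM. Mrps18c, which has the place of the bacterial protein in the small subunit, rose by 0.48 (SE 0.153, adjusted p = 0.00748), from 35.2, 41.6 and 31.0 CPM to 54.7, 46.1 and 58.6 CPM. The groups did not overlap in any of the 3 genes, and the 95% intervals of Mrps18b (1.38 to 2.06) and Mrps18c (0.17 to 0.80) lay apart. The call on Mrps18c was lost with upper quartile normalization (0.31) and in DESeq2 with the mouse as a block (0.54).

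Mrps30, the other large subunit protein with a small subunit name, rose by 0.93 (SE 0.173, adjusted p = 4.7e-05). Mrps36, of the 2-oxoglutarate dehydrogenase complex, rose by 1.40 (SE 0.121, adjusted p = 3.99e-10), from 48.4, 42.0 and 43.1 CPM to 117, 131 and 123 CPM. Mrpl30, Mrpl53 and Mrpl42, which had the highest mean CPM of the 76, rose by 1.10, 0.58 and 1.09, and Mrps31, Mrpl27 and Mrps11, which had the lowest, by 0.73, 0.81 and 1.54. Mrps11 and Mrpl46 lie head to head on chromosome 7 and overlap on opposite strands, and Mrpl46 rose by 1.43 (SE 0.208, adjusted p = 1.79e-06). Mrpl27 lost its call when every library was thinned to the smallest total (0.41), and Mrps31 in DESeq2 with the mouse as a block (0.77).

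A pair of genes fell with isotype. Mrpl34, a small protein of the large subunit with a bacterial counterpart (chr8:71464959-71465747, plus strand), measured 94.2, 74.1 and 120 CPM in the unstimulated and 60.2, 54.9 and 58.6 CPM in the anti-CD3 isotype libraries. The groups did not overlap although the unstimulated libraries varied among themselves (log2 -0.79, SE 0.141, adjusted p = 2.55e-05). Mrpl14, which faces the small subunit, went from 61.4, 49.9 and 47.3 CPM to 40.3, 38.4 and 45.5 CPM (log2 -0.43, SE 0.143, adjusted p = 0.00964). The distance between the groups of Mrpl14 was narrow, and its call was lost in 5 of 15 alternatives, among them DESeq2 (-0.38) and leaving out the unstimulated isotype library of mouse 1 (-0.32) or the anti-CD3 isotype library of mouse 2 (-0.35).

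**Figure D3:**
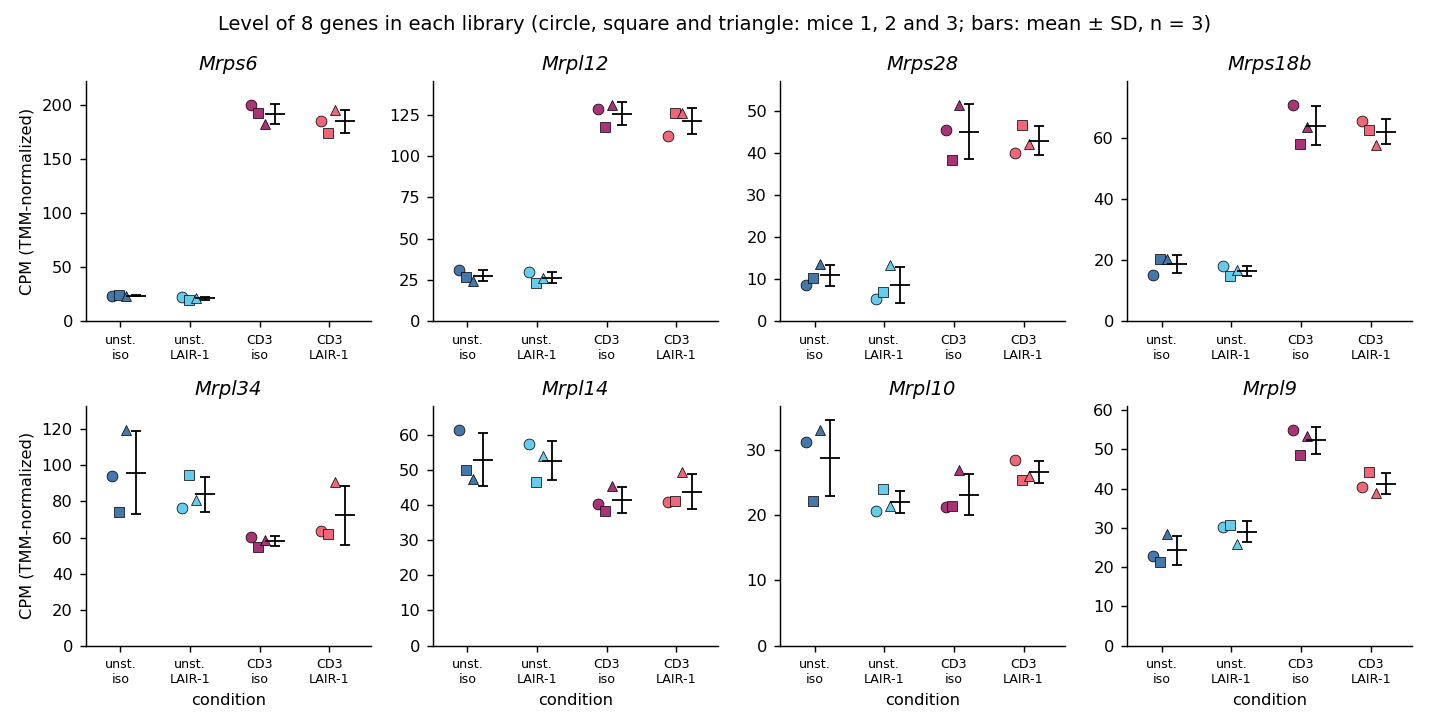
CPM (vertical axes, TMM-normalized) of 8 genes in the 12 libraries, by condition (horizontal axes: unst., unstimulated; iso, isotype; LAIR-1, anti-LAIR-1; CD3, anti-CD3), with 1 symbol per mouse and the mean ± SD. Mrps6 lies at 19.2 to 23.8 CPM without and at 174 to 200 CPM with anti-CD3, whereas Mrpl34 lies at 74.1 to 120 CPM in the unstimulated isotype and 54.9 to 60.2 CPM in the anti-CD3 isotype libraries.

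The 8 genes that passed in neither direction with isotype were Mrps34, Mrpl48, Mrps9, Mrpl4, Mrps35, Mrpl24, Mrps16 and Mrpl10, with log2 values from -0.37 to 0.51. Mrps34 was at the threshold (0.51, SE 0.227, adjusted p = 0.0504) and was called higher in 5 alternatives, the fit with the mouse as a block among them. It overlaps Nme3 on the same strand, which measured -0.60 (SE 0.279, adjusted p = 0.0606). Mrps16 (-0.23, SE 0.131, adjusted p = 0.129) was, like Mrpl10, called lower with upper quartile normalization and with library totals alone. Those scalings moved the median of all genes to -0.201 and -0.116, and that of the 76 genes to 0.858 and 0.943.

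By structural class, the median rise with isotype was 1.09 for the 30 large subunit proteins with a bacterial counterpart, of which 25 rose and 2 fell. It was 0.926 for the 19 large subunit proteins found only in mitochondria, of which 18 rose. Among small subunit proteins, 14 of 16 with a bacterial counterpart (median 1.04) and 8 of 10 without one (median 0.698) rose. The ranges of single genes overlapped widely between the classes, from -0.79 to 2.11 and from 0.309 to 1.67 within the large subunit, and no difference between classes was tested. Of the 8 proteins around the tunnel exit 7 rose (median 0.653). Of the 7 in the central protuberance, a part of the large subunit that meets the small one, 6 rose (median 0.758). Over all 76 members 66 rose and 2 fell, and of all genes tested 35.3% rose and 36.1% fell.

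The promoters of the genes that moved most are shown, so that the letters counted over all members can be seen in place. The stretches are from the RefSeq table of GRCm38.p6, read 5′ to 3′ on the strand of the gene, up to 200 bases before the most upstream annotated start. They follow the order of the rise among members with an entry, with Mrpl34 added because it fell the most, a choice made after its values were seen. Capitals mark a match to 1 of the 4 motifs given in the next paragraph.
Mrps6 (chr16:92058136-92058269, plus strand): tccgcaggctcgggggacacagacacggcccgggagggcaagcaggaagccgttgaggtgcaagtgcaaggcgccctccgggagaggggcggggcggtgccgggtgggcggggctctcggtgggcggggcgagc
Mrpl12 (chr11:120484437-120484612, plus strand): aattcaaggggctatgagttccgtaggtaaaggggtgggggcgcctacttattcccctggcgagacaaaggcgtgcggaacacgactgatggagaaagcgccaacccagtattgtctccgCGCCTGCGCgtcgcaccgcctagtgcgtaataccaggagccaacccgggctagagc
Mrpl20 (chr4:155802678-155802877, plus strand): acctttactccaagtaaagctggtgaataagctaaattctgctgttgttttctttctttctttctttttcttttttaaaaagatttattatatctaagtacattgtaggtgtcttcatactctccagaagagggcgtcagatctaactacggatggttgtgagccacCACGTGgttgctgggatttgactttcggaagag
Mrps18b (chr17:35916441-35916640, minus strand): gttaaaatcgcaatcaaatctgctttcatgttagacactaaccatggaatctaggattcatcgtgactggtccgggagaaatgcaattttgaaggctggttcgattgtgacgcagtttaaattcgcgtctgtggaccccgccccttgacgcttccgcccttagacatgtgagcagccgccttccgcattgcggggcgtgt
Mrpl34 (chr8:71464726-71464925, plus strand): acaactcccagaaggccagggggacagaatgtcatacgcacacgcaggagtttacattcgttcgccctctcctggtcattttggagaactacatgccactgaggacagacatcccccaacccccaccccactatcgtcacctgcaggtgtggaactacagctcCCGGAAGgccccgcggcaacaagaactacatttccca

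Of the 76 genes, 67 had a promoter window (250 bases before to 50 after the RefSeq start). Missing were Mrpl4, Mrpl13, Mrpl15, Mrpl19, Mrpl38, Mrpl54, Mrps28, Mrps34 and Mrps35. Windows were searched on both strands for the letters of 4 factors known to act at such promoters. The letters were GCGCANGCG for NRF1, CCGGAAG for GABP and other ETS factors, ATGGCGG for YY1 and CACGTG for the E-box of MYC, and no motif contains another. The GABP/ETS letters were in 24 of the 67 windows (35.8%, Wilson 95% interval 25.4 to 47.8) and in 18.5% of those of 10401 other genes of the count table. The NRF1 letters were in 15 (22.4%, 14.1 to 33.7, against 14.1%), those of YY1 in 13 (19.4%, 11.7 to 30.4, against 8.6%) and the E-box in 5 (7.46%, 3.23 to 16.3, against 11.4%). At least 1 of the 4 was in 44 windows (65.7%) and in 41.6% of those of other genes. Of the promoters shown, that of Mrpl12 has NRF1 letters at position -80, that of Mrpl20 an E-box at -33 and that of Mrpl34 GABP/ETS letters at -37 from the RefSeq start. Those of Mrps18b (NRF1 at -224, GABP/ETS at 44) lie outside the stretch printed, and the window of Mrps6 holds none of the 4. The median rise with isotype was 0.719 in genes with and 1.1 in genes without GABP/ETS letters, and 0.693 with and 1.08 without those of NRF1. It lay the other way for YY1 (1.3 with and 1 without) and the E-box (1.39 with and 1.03 without). These are descriptions of letters, and binding was not measured.

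With anti-LAIR-1, 69 genes rose with anti-CD3 (36.4% of 9000 genes tested) and 1 fell (36.3%). The median log2 fold change was 1.06, against -0.0355 over all genes, and 39 again rose by more than 1 (19.3% of all genes). The groups did not overlap for 71 genes that were higher (37.9% of all genes) and for 0 that were lower (36.9%). The libraries used here were other ones than for isotype, from the same mice. All 66 genes that rose with isotype also rose with anti-LAIR-1, and 5 passed with neither. Across the 76 genes the log2 values with isotype and anti-LAIR-1 had a Pearson r of 0.93 and a Spearman rho of 0.903, which describes genes and not replicates, and the median absolute difference was 0.15. The same agreement over all genes tested is not given here, so it cannot be said whether it is particular to the 76 genes.

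The leading genes with anti-LAIR-1 were Mrps6 (3.13, SE 0.11, adjusted p = 1.21e-14), Mrps28 (2.32, SE 0.217), Mrpl12 (2.19, SE 0.118), Mrpl20 (2.00, SE 0.12), Mrps18b (1.91, SE 0.136), Mrpl50 (1.90, SE 0.16), Mrpl17 (1.79, SE 0.115) and Mrpl15 (1.66, SE 0.107). Mrps6 measured 22.3, 19.2 and 21.2 CPM without and 185, 174 and 196 CPM with anti-CD3. Mrps34, Mrpl48 and Mrps9, which missed the threshold with isotype, passed with anti-LAIR-1, at 0.68, 0.62 and 0.55. Mrpl34 measured 76.4, 94.8 and 80.6 CPM without and 63.7, 62.1 and 90.9 CPM with anti-CD3, and its groups overlapped (log2 -0.24, SE 0.134, adjusted p = 0.108). The anti-CD3 library of mouse 3 lay above those of the other mice, and without it Mrpl34 was called lower, as it was with upper quartile normalization, with library totals and after thinning. Mrpl14 was called lower (-0.29, SE 0.125, adjusted p = 0.0451), but its groups overlapped and the call was lost in 10 of 15 alternatives.

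Anti-LAIR-1 against isotype changed none of the 76 genes past the threshold in cells given anti-CD3 as well, in edgeR or in DESeq2. Of all 8800 genes tested 5.76% passed in edgeR. At an unadjusted p under 0.05 there were 8 of the 76, against 18.8% of all genes. The median log2 difference was -0.0529 for the 76 genes and 0.00474 for all genes. The summed CPM with anti-LAIR-1 was 0.957, 0.989 and 0.939 of that with isotype in mice 1, 2 and 3, and the groups did not overlap (5383 to 5470 against 5511 to 5822 CPM). Scaled by library totals alone they did overlap (5142 to 5289 against 5263 to 5485 CPM). They stayed apart with DESeq2 size factors and with upper quartile normalization. For 67 of the 76 genes the 95% interval of the difference lay within 0.5 on the log2 scale (1.41-fold) in either direction, and for all 76 within 1. Single genes did not overlap between the groups in 3 cases higher (12.2% of all genes) and in 11 lower (12.1%).

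The genes with the smallest p-values in this comparison were Mrpl9, Mrpl30, Mrpl15 and Mrpl34. Mrpl9, a large subunit protein with a bacterial counterpart, measured 55.0, 48.5 and 53.3 CPM with isotype and 40.5, 44.2 and 38.9 CPM with anti-LAIR-1 (log2 -0.33, SE 0.109, adjusted p = 0.0847). Its groups did not overlap, but the difference missed the threshold. Mrpl30 measured 214, 209 and 218 CPM with isotype and 192, 188 and 181 CPM with anti-LAIR-1 (-0.19, SE 0.0707, adjusted p = 0.15). Mrpl15 measured -0.20 (SE 0.0794, adjusted p = 0.173), and Mrpl34 differed the other way, by 0.32 (SE 0.131, adjusted p = 0.194). Mrps5 measured 87.6, 87.7 and 64.1 CPM with isotype and 66.3, 65.8 and 65.8 CPM with anti-LAIR-1, and was the 1 gene called, as lower, when the isotype library of mouse 3 was left out. It is named after its values were seen.

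Of the 8 genes that rose most with anti-CD3 and isotype, none differed past the threshold between the antibodies, and all 8 estimates were below 0. The ranking used the same anti-CD3 isotype libraries, which favours estimates below 0, so their shared sign says little about anti-LAIR-1. Of all 76 genes, 53 had estimates below 0. Mrps6 measured 200, 193 and 182 CPM with isotype and 185, 174 and 196 CPM with anti-LAIR-1, and its groups overlapped (log2 -0.04, 95% interval -0.208 to 0.119). The estimates for Mrps18b, Mrpl12, Mrpl17 and Mrps28 lay between -0.07 and -0.03, with intervals that included 0. Mrpl20 measured -0.15 (-0.348 to 0.045), and Mrpl15 and Mrps5 had the largest differences of the 8, at -0.20 (-0.366 to -0.0315) and -0.26 (-0.499 to -0.0161). Among the other paralogues and stalk proteins, the difference was 0.00 (-0.225 to 0.229) for Mrps18a and -0.11 (-0.36 to 0.132) for Mrps18c. It was 0.19 (-0.114 to 0.496) for Mrpl10 and 0.05 (-0.299 to 0.401) for Mrpl11.

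**Figure D4:**
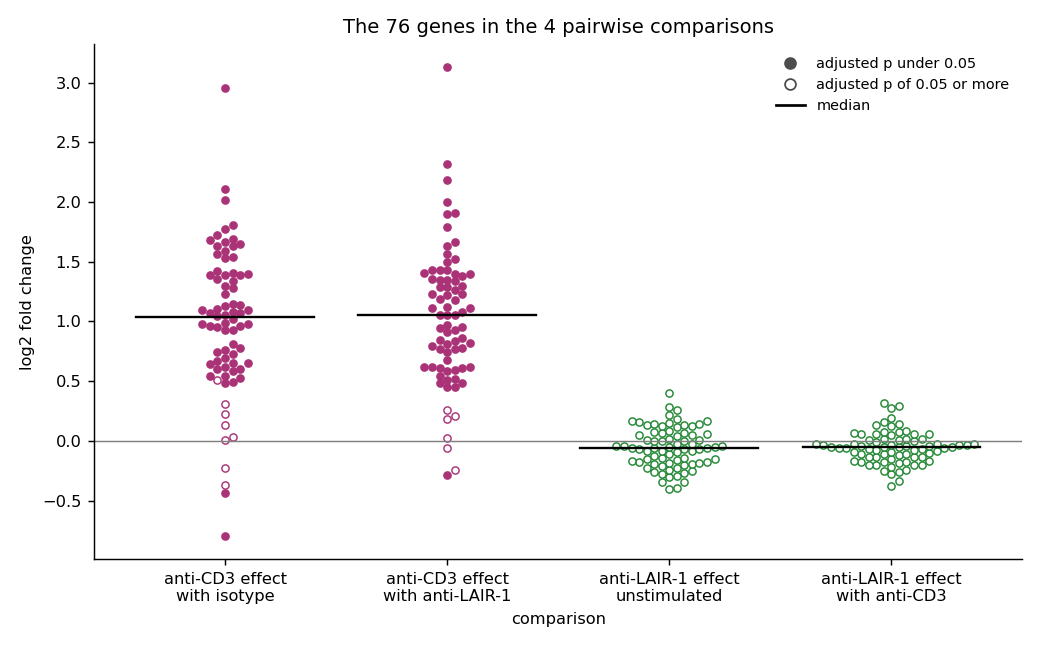
Log2 fold change (vertical axis) of the 76 genes in the 4 pairwise comparisons (horizontal axis), with 1 point per gene, filled where the adjusted p was under 0.05, and the median as a line. The medians were 1.03 and 1.06 for anti-CD3, and -0.0573 and -0.0529 for anti-LAIR-1 without and with anti-CD3.

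In unstimulated cells anti-LAIR-1 also changed none of the 76 genes, and none of all 8770 genes tested (0%), in edgeR. DESeq2 called 0 of 13259 genes, the 76 among them. At an unadjusted p under 0.05 there were 2 of the 76, against 4.38% of all genes. The summed CPM with anti-LAIR-1 was 0.964, 0.967 and 1 of that with isotype in mice 1, 2 and 3. The groups did not overlap for 3 genes that were higher (5.77% of all genes) and 4 that were lower (4.09%). The median was -0.0573, and the 95% intervals were wider, with 35 of the 76 genes within 0.5 and 74 within 1 on the log2 scale. Mrpl38, of the central protuberance, had the smallest p and measured 64.4, 63.4 and 59.9 CPM with isotype and 46.3, 53.4 and 56.2 CPM with anti-LAIR-1 (-0.29, SE 0.135, adjusted p = 0.997). Mrpl10, Mrpl19 and Mrps15 followed, at -0.40, -0.39 and -0.27.

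Whether anti-LAIR-1 altered the response to anti-CD3 was tested as an interaction over the 12 libraries. None of the 76 genes passed in edgeR or in DESeq2, whereas 2.07% of 9223 genes did, and 6 of the 76 had an unadjusted p under 0.05, against 12.2% of all genes. The median interaction was 0.00604, against 0.0402 over all genes. Mrpl9 had the smallest p (-0.59, SE 0.202, adjusted p = 0.159), with 22.9, 21.4 and 28.4 CPM in unstimulated isotype and 30.3, 30.8 and 26.0 CPM in unstimulated anti-LAIR-1 libraries. Its rise with anti-CD3 was thus larger with isotype (1.05) than with anti-LAIR-1 (0.49), a difference that missed the threshold. Mrpl10 (0.60, SE 0.237, adjusted p = 0.261), Mrpl34 (0.52, SE 0.211, adjusted p = 0.274) and Mrpl30 (-0.31, SE 0.128, adjusted p = 0.296) followed.

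The remaining parts of the mitochondrial translation system were followed in the same fits. Of 7 proteins of the mitochondrial ribosome with other names, 5 rose with anti-CD3 and isotype and 1 fell (median 0.692). Chchd1, Gadd45gip1 and Ptcd3 rose by 1.43, 1.33 and 1.29, and Ict1, a peptidyl-tRNA hydrolase built into the large subunit, fell by 0.69 on the log2 scale. Of 12 translation factors tested 6 rose and none fell (median 0.525), with the elongation factors Gfm1, Tsfm and Tufm at 1.72, 1.28 and 1.23, and the recycling factor Mrrf, the deformylase Pdf and the formyltransferase Mtfmt at 1.17, 0.79 and 0.71. Of 25 factors of ribosome assembly and ribosomal RNA modification 8 rose and 2 fell (median 0.232), where 35.3% of all genes tested rose and 36.1% fell. The methyltransferase Rnmtl1 rose by 2.55, Wbscr16 by 1.97 and the helicase Ddx28 by 1.71, while Rpusd3 and Mettl17 measured -0.83 and -0.58.

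Of 15 genes of mitochondrial transcription and its regulators 10 rose and 1 fell (median 1.02). Among all genes tested 35.3% rose and 36.1% fell. Myc, a transcription factor of growth, rose by 3.94 (SE 0.123, adjusted p = 6.62e-18), the coactivator Pprc1 by 1.94 and Slirp, which stabilizes mitochondrial messages, by 1.79, and Mterfd3 measured -1.82 (adjusted p = 0.00105). Among factors whose letters were searched in the promoters, Gabpa and Gabpb1 rose by 1.23 and 1.15, Nrf1 rose by 0.44 (adjusted p = 0.0482), and Yy1 measured 0.04 (adjusted p = 0.763).

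In their share of the captured messages, those that the mitochondrial ribosome translates moved the other way. Of the 13 protein-coding genes of mitochondrial DNA, 11 fell with anti-CD3 and isotype, none rose, and the median was -0.5. Of all genes tested 36.1% fell and 35.3% rose, with a median of -0.0256. They fell most in mtAtp6 (-0.72, SE 0.0728, adjusted p = 5.95e-09), mtNd5 (-0.70) and mtCo2 (-0.62), while mtNd1 measured -0.05 (adjusted p = 0.562). In sum they held 150400 ± 9830 CPM without and 109400 ± 7680 CPM with anti-CD3. With anti-LAIR-1, 12 of the 13 fell (36.3% of all genes) and the median was -0.471, against -0.0355 over all genes. All reads from the mitochondrial chromosome made up 17.6 to 20.9% of unstimulated and 11.5 to 13.2% of anti-CD3 libraries.

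Nuclear genes of the respiratory chain and ATP synthase rose in 56 of 75 cases and fell in 5 (median 0.611). Atp5g1, Ndufa12 and Uqcrq rose by 1.95, 1.92 and 1.75, and Cox7a2l, an assembly factor of respiratory supercomplexes, measured -2.19 (SE 0.102, adjusted p = 5.5e-15), Ndufa6 -0.77 and Ndufv3 -0.65. Cytosolic ribosomal proteins did not rise as a list in their share of the captured messages. In isotype libraries 12 of 75 were higher and 34 lower (35.3% and 36.1% of all genes), and the median was -0.17. Within mice 1, 2 and 3 the median difference in log2 CPM was -0.174, -0.102 and 0.0276. With anti-LAIR-1, 26 of 76 were higher and 26 lower with anti-CD3 (36.4% and 36.3% of all genes), and the median was -0.039. Rpl34, Rps15a and Rps2 rose by 2.60, 1.20 and 0.67, and Rpl39 and Rpl17 measured -0.79 and -0.65. Many cytosolic ribosomal protein genes have processed pseudogenes, and reads that matched several places equally well were discarded, so that the values of single genes such as Rpl34 (3.34 CPM in unstimulated isotype libraries) are uncertain. Under anti-CD3, anti-LAIR-1 left 1 of the 13 mitochondrially encoded genes (mtNd4l, -0.39, adjusted p = 0.00788) lower, where 5.76% of all genes passed. The lowest estimate among the 13 was -1.03, in a gene that did not pass. None of the nuclear respiratory chain, translation factor, assembly or regulator genes passed. Cytosolic ribosomal proteins are not reported for anti-LAIR-1 against isotype.

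**Figure D5:**
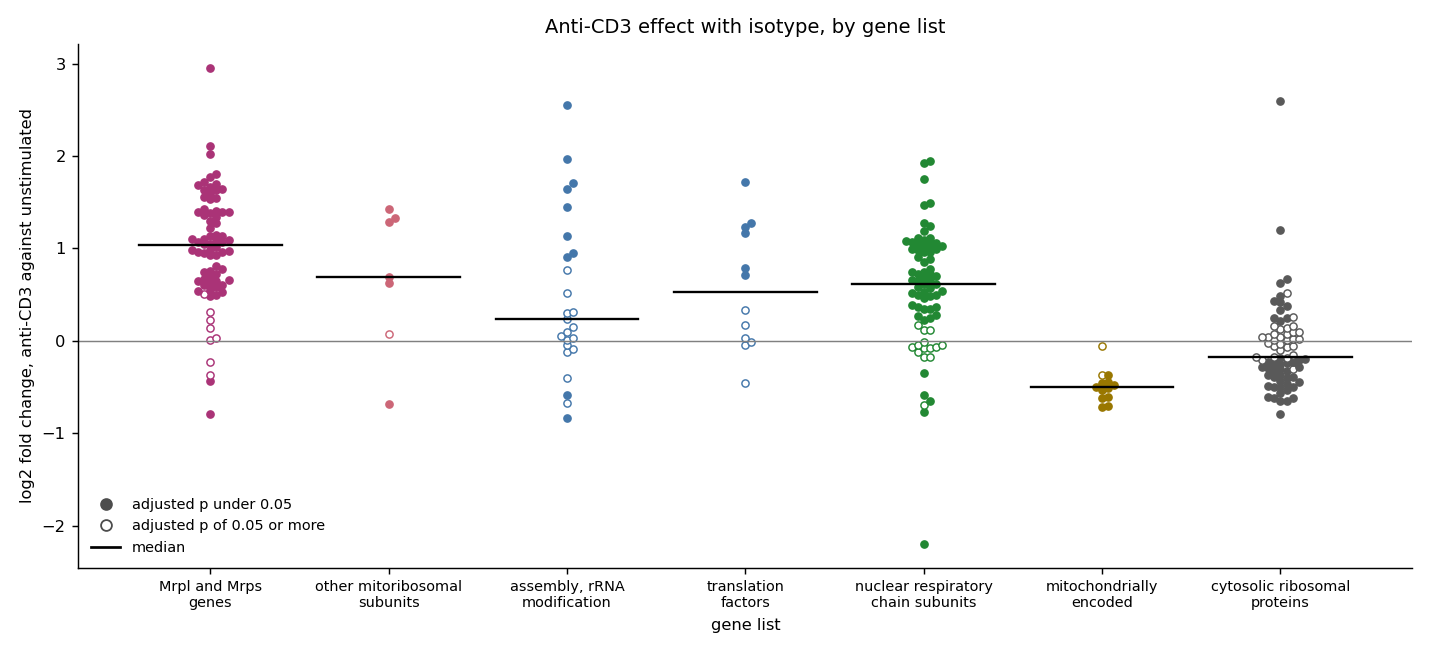
Log2 fold change with anti-CD3 against unstimulated in isotype libraries (vertical axis) by gene list (horizontal axis), with 1 point per gene, filled where the adjusted p was under 0.05, and the median as a line. The medians were 1.03 for the Mrpl and Mrps genes, 0.611 for nuclear respiratory chain subunits, -0.17 for cytosolic ribosomal proteins and -0.5 for mitochondrially encoded genes.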

How the data were processed

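RNA of 12 libraries (3 mice, 4 conditions) was prepared by an adapted CEL-seq protocol, which reads the 3′ ends of polyadenylated RNA. The deposited values are raw read counts per gene, which the authors made by aligning reads to the mm10 transcriptome with BWA MEM, dropping reads that matched several places equally well. Whether molecular identifiers were collapsed is not given in the sources used here, so that limits drawn from counts cover counting error only.

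Counts were tested with edgeR 4.0.16 in R 4.3.3 (TMM, filterByExpr with a minimum count of 10, quasi-likelihood F-test, Benjamini-Hochberg over all genes, threshold 0.05), on the 6 libraries of each comparison or all 12 for the interaction. The SE is the log2 fold change over the square root of F. DESeq2 1.42.0, other scalings, no filter, thinning, leaving out libraries and a mouse block were alternatives. Cells of each mouse went into every condition, so that libraries are paired by mouse, although their deviations correlated weakly across genes (mean r 0.0263 to 0.0892 over the 4 pairwise comparisons). Replicates differed by more than sampling noise. The fits were checked on simulated counts with 200 genes changed by 1 on the log2 scale in either direction, none of them at low levels. Of these 83 to 93% were recovered, and 2.35 to 6.49% of calls fell on unchanged genes. Far more genes changed with anti-CD3, so that the check does not cover a response of that width.

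Although the members were set by their names alone, they and the lists were chosen with earlier results of these data known. Named are, per comparison, up to 8 members with the highest and 8 with the lowest change that passed in the same direction in 3 mice, or the 4 with the smallest p where fewer than 4 passed. Mrps18a to c, Mrps30, Mrps36, the stalk genes and the 3 members with the highest and 3 with the lowest mean CPM are always named, and of other lists the 3 highest and 3 lowest that passed, of which some are not reported here.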

Additional observations from a re-analysis of the deposited data

How the results depend on the processing

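The numbers of the 76 genes called with anti-CD3 were 62 to 69 with isotype (68 as reported) and 66 to 71 with anti-LAIR-1 (70 as reported) over 15 alternatives each. Among these, the fits with the mouse as a replicate block gave 69 and 70 in edgeR, and 62 and 67 in DESeq2. The median log2 fold change with isotype was 0.858 with upper quartile normalization, 0.943 with library totals alone and 1.13 with no filter on low counts. With anti-LAIR-1 it was 1.07 with DESeq2 size factors, 0.848 with upper quartile normalization, 0.946 with library totals, 1.15 with no filter, 1.11 in DESeq2 without and 1.11 with the block, 1.02 after thinning, and 1.02 to 1.09 when leaving out 1 library. Anti-LAIR-1 with anti-CD3 gave 0 to 1 called genes when leaving out 1 library, and 0 in all other alternatives. With upper quartile normalization the summed CPM was 2810 in unstimulated isotype and 5452 in anti-CD3 isotype libraries, and 5223 where anti-LAIR-1 was given with anti-CD3. With library totals these were 2854, 5338 and 5199, and unstimulated libraries with anti-LAIR-1 had 2752. Mrpl10 with anti-LAIR-1 turned to -0.0225 after thinning. NRF1 letters with T in sixth place were in 10.4% of the windows, against 3.91% of those of other genes. Leaving Mrps6 out, an alternative chosen after seeing the data, moved the ratio of large to small subunit sums to 2.391 without and 2.413 with anti-CD3 for isotype, and to 2.352 and 2.395 for anti-LAIR-1, and so ended its separation by anti-CD3. The block ended no call in edgeR, in any comparison. The causes of these differences were not tested. With 3 libraries per condition, the 95% intervals of single genes for anti-LAIR-1 against isotype reached a median of 0.232 to either side on the log2 scale with and 0.367 without anti-CD3, which limits what could be detected, and the 3 unstimulated isotype libraries were the shallowest.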
